A study of Mus musculus with 6 samples.

Results

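Transcripts of 8 ADAMTS metalloproteinases, Adamts1, Adamts2, Adamts4, Adamts5, Adamts7, Adamts10, Adamts12 and Adamts15, were followed in synovial fibroblasts (SFs) with and without amisulpride. They were taken by gene name from a table of 49548 mouse genes, and all 8 were found there. No filter on their values was used, but the list was drawn up with earlier results of these data known. The cells were SFs from the ankle joints of mice that carry a human TNF transgene (hTNFtg) and develop inflammatory arthritis. The study's methods describe ankles of mice aged 8 weeks on a CBA and C57BL/6J background, with removal of CD45+ cells at the first passage. All 6 libraries share this genotype and cell type. Of these, 3 came from cells given 500 μM the antipsychotic drug amisulpride, a dopamine D2/D3 receptor antagonist, for 48 hours, and 3 from cells that the labels call not treated. The study's methods mention vehicle for controls, so whether these cells received DMSO is not settled, and no library of SFs without the transgene was used here. The methods speak of biological replicates, but whether each came from its own animals is not stated, so p-values measure the spread between these cultures.

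ADAMTS enzymes are secreted zinc proteases with thrombospondin repeats that cut proteins of the extracellular matrix. The aggrecanases, among them ADAMTS4, ADAMTS5, ADAMTS1 and ADAMTS15, cleave the large proteoglycans aggrecan and versican, and loss of aggrecan is an early step of cartilage damage in arthritis. ADAMTS2 removes the amino-terminal propeptide of fibrillar procollagens, ADAMTS7 and ADAMTS12 cleave cartilage oligomeric matrix protein, and ADAMTS10 binds fibrillin-1 in microfibrils. The enzymes are made as inactive precursors, are activated by proprotein convertases such as furin, and are held in check mainly by TIMP3.

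What the 8 genes share in sequence is the zinc-binding site of their catalytic domain. In the longest coding transcript of each gene (GENCODE vM21, genome build GRCm38, which is mm10) the site takes 11 codons, or 33 bases, and it was found once in 8 of 8 genes. It is shown for the 4 aggrecanases and for Adamts7, since the results below turn on them. Capitals mark the codons that the search pattern sets, which are those of the zinc-binding histidines and the catalytic glutamate and, between the last histidines, a codon that the pattern allows to be for glycine or asparagine.
Adamts4: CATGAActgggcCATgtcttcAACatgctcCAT
Adamts1: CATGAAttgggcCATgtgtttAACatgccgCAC
Adamts15: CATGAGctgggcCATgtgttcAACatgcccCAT
Adamts5: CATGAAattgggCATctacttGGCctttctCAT
Adamts7: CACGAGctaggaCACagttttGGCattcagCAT

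Over the 28 pairs of genes, 18 to 30 of the 33 bases were identical. The closest pair was Adamts4 and Adamts15, with 30 of 33 bases identical. Adamts1 shared 27 bases with Adamts4 and 28 with Adamts15, whereas Adamts4 and Adamts5 shared 19. Within the aggrecanases, the 2 genes most often studied together in cartilage were thus the least alike at this site, at the same value as Adamts5 and Adamts15. In each gene the site runs across the junction of neighbouring exons. The site of Adamts4 spans exons 3 and 4 of 9 at chr1:171253210-171253915 on the plus strand. The site of Adamts5 spans exons 2 and 3 of 8 at chr16:85878015-85887826 on the minus strand, and that of Adamts1 spans exons 3 and 4 of 9 at chr16:85799191-85799545, also on the minus strand. Adamts1 and Adamts5 are neighbours on chromosome 16, with 55.1 kb between the 2 genes. The site of Adamts15 lies at chr9:30911255-30911690 on the minus strand and that of Adamts7 at chr9:90179456-90180640 on the plus strand. Reads of this assay come from the 3′ end of the transcripts, so the site itself was not sequenced, and the values below stand for whole transcripts.

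Values are reads per gene after the authors' scaling of each library by a single factor and rounding, called normalised counts here. A read was worth 0.833 to 1.79 normalised counts, and the libraries held approximately 2.52 to 4.71 M reads. The floor, set at 3 reads as the upper limit behind a 0, was 2.50 to 5.37 normalised counts depending on the library. Without molecular identifiers it covers counting error alone, and it is uncertain for untreated replicate 1. Genes were tested where the value was at least 10 in at least 3 libraries, with limma on log2(normalised count + 1), and p-values were adjusted over 12614 genes. Amisulpride replicate 3 stood apart on the first principal component of all genes (37.1% of the variance), at 73.9 against -38.2 to 10.4 for the other libraries. All 12 fibroblast markers examined passed the filter. Their summed value, mostly Col1a1, Col1a2, Col3a1 and Vim, was 44912 to 60420 in untreated and 52789 to 91880 in treated libraries. Of the 12, 8 had log2 fold changes above 0 and 4 below it, from -1.07 for Lum to 1.12 for Fap, with a median of 0.19. Most chondrocyte markers were low, with 1 of the 11 listed in the table passing the filter and Col9a1 and Matn1 at 0 in every library. Col2a1 did not pass but was above the floor in 5 of 6 libraries, at 9, 8 and 12 in untreated and 4, 3 and 9 in treated ones. The one that passed was Sox9, at 249 to 274 in untreated and 233 to 557 in treated libraries. Among 9 endothelial markers Cdh5, Tie1 and Cldn5 were at 0, and 1 passed the filter, Egfl7. It was lower without overlap, as were 8.66% of all genes tested, at 66 to 84 in untreated and 25 to 59 in treated libraries. All 13 myeloid markers passed the filter despite the depletion of CD45+ cells, with a sum of 2849 to 5562 in untreated and 2753 to 5097 in treated libraries. Ptprc, which encodes CD45, was at 12 to 38 and at 5 to 23. The sum was mostly Lyz2, and 2 of the 13 were lower past the study thresholds given below, against 3.01% of all genes tested. Cd14 had a log2 fold change of -1.74 (adjusted p = 0.144, or 0.012 with the replicate number as a block, limma). Csf1r had -1.01 (adjusted p = 0.456, limma), at 114, 93 and 76 in untreated and 41, 23 and 100 in treated libraries. Of the 13, 8 had log2 fold changes below 0 and 5 above it, with a median of -0.15. The highest were Adgre1 at 0.83 and C1qb at 0.75.

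Of the 8 ADAMTS genes, 6 passed the filter on low values. None had an adjusted p under 0.05 (limma), a call made for 0.285% of all genes tested, and 2 had an unadjusted p under 0.05, as did 10.9% of all genes. The thresholds of the study were a log2 fold change of 1 or more in size together with an unadjusted p under 0.05. Adamts4 and Adamts7 passed these thresholds, both lower with amisulpride, against 3.01% of all genes in that direction. The fold changes of all 6 tested genes were below 0, with a median of -0.30 against 0.0016 over all genes tested, and the 95% confidence intervals of the other 4 spanned 0. Where the replicate number was a block, as the libraries with the same number deviated together, Adamts4 was called (1 of 6 genes tested, against 1.05% of all genes called lower and 2.08% called in either direction).

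**Figure D1:**
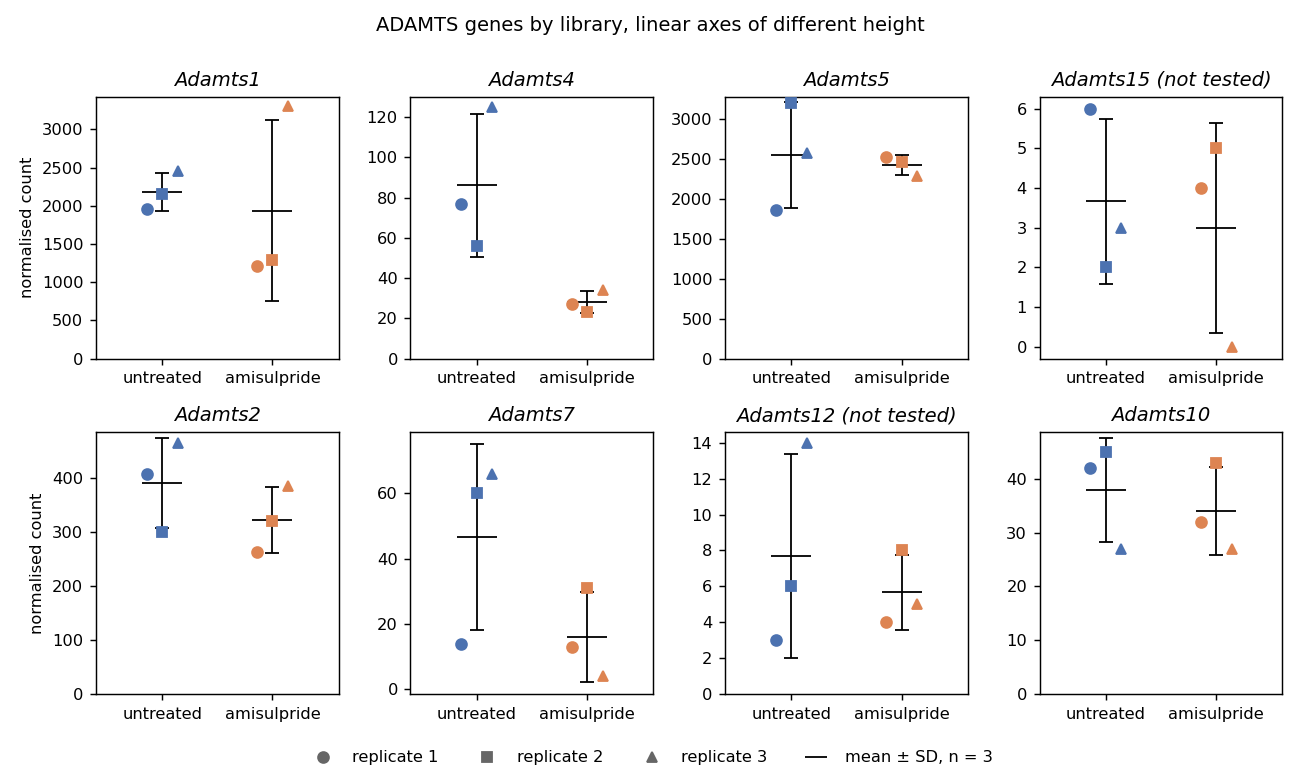
Normalised count (y axis, linear and of different height in each panel) of the 8 ADAMTS genes in the 3 untreated and the 3 amisulpride-treated libraries (x axis), where points are libraries, shaped by replicate number, and the black bars give mean ± SD. The groups are fully apart for Adamts4 alone, at 56 to 125 in untreated and 23 to 34 in treated libraries, and amisulpride replicate 3 is the highest of all for Adamts1, at 3302.

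Adamts5, a major aggrecanase of mouse cartilage, was the most abundant of the 8 genes (ENSMUSG00000022894, chr16:85858170-85901125, minus strand). Its normalised counts were 1863, 3194 and 2572 in untreated SFs and 2518, 2464 and 2283 in treated SFs. The treated values lay inside the range of the untreated ones. The means were 2543 ± 666 and 2422 ± 123 (SD, n = 3 each), and the log2 fold change was -0.04 ± 0.27 (SE), with a 95% confidence interval of -0.62 to 0.55 and an adjusted p of 0.972 (limma). A log2 change of -1 thus lay outside the interval. The sign turned to 0.14 without untreated replicate 2, so no direction can be given.

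Adamts4, the aggrecanase that inflammatory cytokines are known to induce, was lower in every treated library than in any untreated one (ENSMUSG00000006403, chr1:171250421-171260637, plus strand). It stood at 77, 56 and 125 normalised counts in untreated SFs and at 27, 23 and 34 in treated SFs. Groups that did not overlap and were lower with amisulpride were seen for 8.66% of all genes tested. The means were 86.0 ± 35.4 and 28.0 ± 5.57 (SD, n = 3 each), a 2.88-fold lower level on the log2(normalised count + 1) scale. The log2 fold change was -1.52 ± 0.36 (SE; 95% interval -2.31 to -0.74), with an unadjusted p of 0.00131 and an adjusted p of 0.113 (limma). With the replicate number as a block the adjusted p was 0.0196. Within replicate numbers 1, 2 and 3 the log2 differences were -1.48, -1.25 and -1.85, and the treated library was thus lower in 3 of 3, as it was for 17.8% of all genes tested. With limma's array weights, which give less weight to noisier libraries, the adjusted p was 0.0334, and without any 1 library the log2 fold change was -1.79 to -1.22. These are few reads, approximately 53 to 150 in each untreated and 17 to 30 in each treated library.

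Some genes on the marker lists for contractile cells, the synovial lining, endothelium and bone were lower with amisulpride, as Adamts4 was. Others on the same lists were not. The study counts lining cells among the SFs. Of 9 markers of smooth muscle cells and pericytes, 6 were tested, and 4 of them were lower past the study thresholds, against 3.01% of all genes tested. The 4 were Acta2, Mcam, Cnn1 and Tagln, which encode contractile proteins and a surface receptor. None of the 6 had an adjusted p under 0.05 in limma, whereas with the replicate number as a block these 4 did, at 0.0142, 0.0191, 0.00021 and 0.00135. Under the block 1.05% of all genes were called lower. The median log2 fold change of the 6 was -1.40, and Acta2 alone of the 4 left the thresholds with a library left out, at -0.93 without amisulpride replicate 2. The summed value of the 9 markers, mostly Acta2, was 6505 to 11722 in untreated and 1672 to 5535 in treated libraries. The 6 libraries fell in the same order by this sum and by Adamts4. Of the defining markers, Myh11 was at 0 or 1 in every library and Rgs5 at 2 to 12, while Notch3 and Cspg4 had log2 fold changes of -0.08 and 0.21. Of 5 markers of the synovial lining 3 were tested and none passed the study thresholds. The sum of the list, mostly Prg4, was 840 to 1025 in untreated and 392 to 771 in treated libraries. Of the 3 tested, Prg4 and Hbegf had log2 fold changes of -0.92 and -0.65, and Tspan15 had 0.44. The endothelial sum, mostly Egfl7, was 77 to 98 and 27 to 67. Of 7 osteoblast markers 2 were tested, and they differed in direction. Alpl, at 63, 21 and 28 in untreated and 8, 4 and 5 in treated SFs, was lower past the thresholds. Its log2 fold change was -2.41, with an adjusted p of 0.0925 (limma), or 0.0148 with the block. Runx2, at 49, 55 and 78 in untreated and 78, 67 and 77 in treated SFs, had a log2 fold change of 0.31. The sum of the osteoblast list was 81 to 121 and 76 to 95. The part of these cell types in the result was not tested. In bulk samples fewer cells of a type, less RNA per cell and expression of a listed gene by the SFs themselves cannot be told apart.

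**Figure D2:**
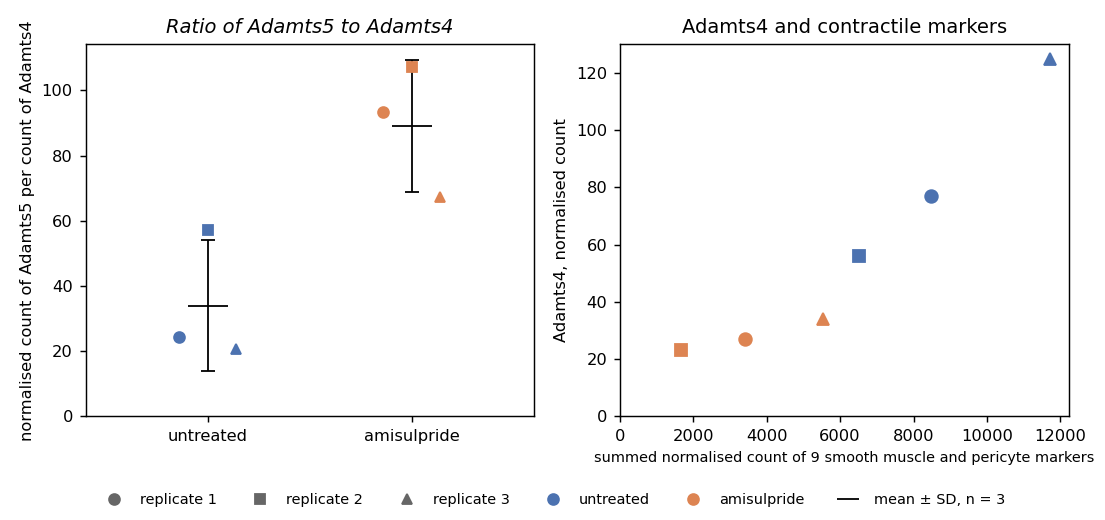
Left, normalised count of Adamts5 per normalised count of Adamts4 (y axis) in untreated and amisulpride-treated libraries (x axis), with mean ± SD. Right, normalised count of Adamts4 (y axis) against the summed normalised count of 9 smooth muscle and pericyte markers, mostly Acta2 (x axis), 1 point per library. The ratio is 20.6 to 57.0 in untreated and 67.1 to 107.1 in treated libraries, and the treated libraries take the 3 lowest places on both axes of the right panel.

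The balance between both aggrecanases was taken within each library, where no scaling factor enters. A QuantSeq library yields about 1 read for each transcript whatever its length, so counts of 2 genes can be set side by side without division by length. The ratio of Adamts5 to Adamts4 was 24.2, 57.0 and 20.6 in untreated SFs and 93.3, 107.1 and 67.1 in treated SFs. Every treated library had the higher ratio, and the difference was 1.49 on the log2 scale. An exact permutation test gave a two-sided p of 0.1, the smallest that 3 against 3 libraries allow. Leaving out 1 library moved the log2 difference between 1.21 and 1.94.

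Adamts1, which cleaves versican and aggrecan and is also known for its thrombospondin-dependent action on vessels, was nearly as abundant as Adamts5 (ENSMUSG00000022893, chr16:85793827-85803113, minus strand). Its normalised counts were 1955, 2148 and 2450 in untreated SFs and 1218, 1286 and 3302 in treated SFs. A pair of treated libraries lay below every untreated one, and amisulpride replicate 3 lay above them all. The log2 fold change was -0.33 ± 0.36 (SE; 95% interval -1.12 to 0.46), with an adjusted p of 0.784 (limma). Without amisulpride replicate 3, the library that stood apart over all genes, the log2 fold change was -0.80, with an unadjusted p of 0.00528 and an adjusted p of 0.154 (limma).

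Adamts15 was close to the limit of detection (ENSMUSG00000033453, chr9:30899155-30922452, minus strand). It was at 6, 2 and 3 in untreated and 4, 5 and 0 in treated libraries, above the floor of 3 reads in 4 of 6 libraries, and was not tested. Its 0 in amisulpride replicate 3 allows up to 5.37 normalised counts, so a difference could not be seen at this depth. The sum of the 4 aggrecanases was 3901, 5400 and 5150 in untreated and 3767, 3778 and 5619 in treated libraries. It was made up almost wholly of Adamts5 and Adamts1, its log2 difference was -0.15, and an exact permutation test gave a two-sided p of 0.8.

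Adamts2, the procollagen N-proteinase, was at 407, 299 and 464 in untreated and at 263, 319 and 385 in treated SFs (ENSMUSG00000036545, chr11:50602084-50807573, plus strand). The groups overlapped. The log2 fold change was -0.27 ± 0.26 (SE; 95% interval -0.85 to 0.31), with an adjusted p of 0.753 (limma). Adamts10, the fibrillin-binding member, was at 42, 45 and 27 in untreated and at 32, 43 and 27 in treated SFs (ENSMUSG00000024299, chr17:33524204-33553782, plus strand). The lowest value of both groups was the same, and the log2 fold change was -0.15 ± 0.36 (SE; 95% interval -0.93 to 0.63), with an adjusted p of 0.909 (limma).

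Adamts7 had the lowest fold change of the 8 genes but the widest scatter (ENSMUSG00000032363, chr9:90163069-90208071, plus strand). It was at 14, 60 and 66 in untreated and at 13, 31 and 4 in treated SFs. Within each replicate number the treated library was the lower, but untreated replicate 1 was as low as amisulpride replicate 1, and the groups overlapped. The log2 fold change was -1.59 ± 0.72 (SE; 95% interval -3.17 to -0.01), with an unadjusted p of 0.0485 and an adjusted p of 0.455 (limma). Without amisulpride replicate 3 it was -0.90, and the gene left the study thresholds. It left them also without untreated replicate 2, untreated replicate 3 or amisulpride replicate 1, with unadjusted p-values of 0.165, 0.183 and 0.0797 (limma). The longest of the 4 annotated basic transcripts of Adamts7 ends at position 90208071 and overlaps the 3′ end of Tbc1d2b on the opposite strand by 6045 bases, whereas the others end before the overlap, at 90199990 to 90200102. The strand setting of the counting is not stated, so reads of the 2 genes cannot be told apart there. Tbc1d2b, at 142 to 369 normalised counts, had a log2 fold change of 0.31, the opposite sign.

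Adamts12, the closest relative of Adamts7 at the zinc-binding site (26 of 33 bases), was too low to test (ENSMUSG00000047497, chr15:11064790-11346867, plus strand). It was at 3, 6 and 14 in untreated and at 4, 8 and 5 in treated SFs, with overlap of the groups. By untreated mean, the order of the members was Adamts5 at 2543, Adamts1 at 2184, Adamts2 at 390.0, Adamts4 at 86.0, Adamts7 at 46.7, Adamts10 at 38.0, Adamts12 at 7.67 and Adamts15 at 3.67. Over all 6 libraries, treated and untreated, the ranges of Adamts5 and Adamts1 overlapped, as did those of Adamts4, Adamts7 and Adamts10, and those of Adamts12 and Adamts15. Adamts7, which reached down to 4 in amisulpride replicate 3, also overlapped with these last. Adamts2 lay between these groups and overlapped with none of the other members.

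**Figure D3:**
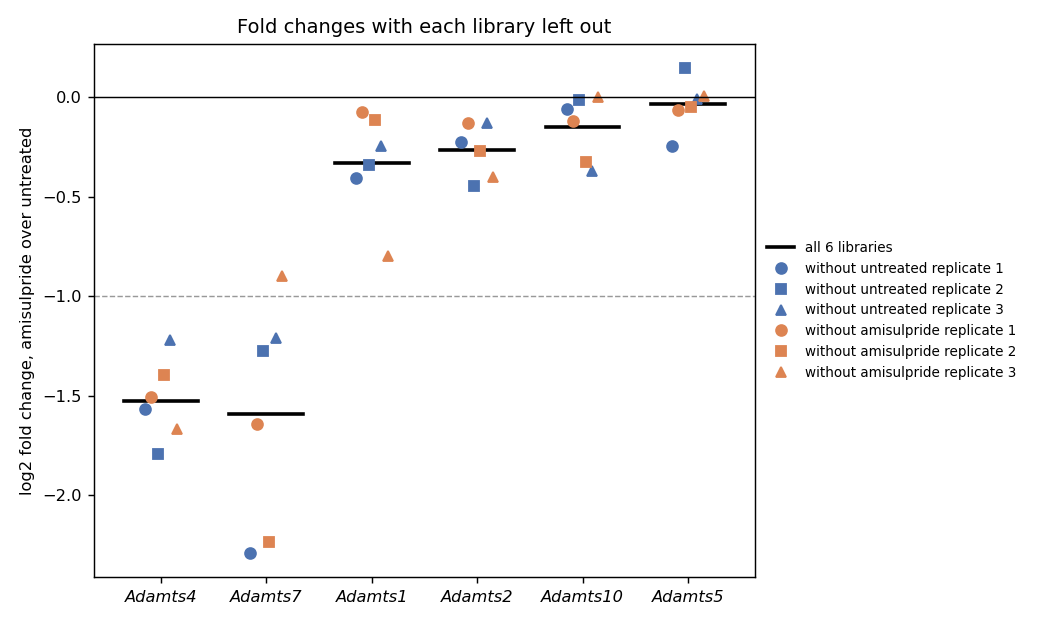
Log2 fold change of amisulpride over untreated (y axis) for the 6 tested ADAMTS genes (x axis), with all 6 libraries (black line) and with each library left out in turn (points, shaped by replicate number and coloured by the group of the library left out). Dashed grey marks a log2 fold change of -1. Adamts4 stays between -1.79 and -1.22, Adamts7 ranges from -2.29 to -0.90, Adamts1 drops to -0.80 without amisulpride replicate 3, and Adamts5 and Adamts10 lie at or near 0.

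For the aggrecanases tested, the protein-coding genes with the most similar course over the 6 libraries were named by the root mean square difference of centred log2 values, as a description. For Adamts4 these were Mcam, a cell adhesion receptor, Podnl1, which encodes a small leucine-rich proteoglycan, and Idi1, an enzyme of isoprenoid synthesis, with differences of 0.22, 0.26 and 0.26 where Adamts4 itself varied by 0.85. Idi1 was at 172, 128 and 180 in untreated and 59, 36 and 70 in treated libraries, and its log2 fold change was -1.56. For Adamts1 they were the chaperone gene Hspa4, the amino acid transporter gene Slc38a2 and Aoc3, an amine oxidase, with differences of 0.08, 0.09 and 0.10 where Adamts1 varied by 0.50. All 3 shared its highest value in amisulpride replicate 3, which for Hspa4 was 771 against 329 to 592 elsewhere. For Adamts5 they were Fam107b, the Wnt receptor gene Fzd1 and Rab33b, a small GTPase, at 0.06, 0.07 and 0.07 where Adamts5 varied by 0.23. All points of a course share their library, and low variation makes likeness easy to reach.

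Among the other 11 ADAMTS genes, 4 passed the filter, none had an adjusted p under 0.05 (limma), 1 had an unadjusted p under 0.05, and this gene also passed the study thresholds. It was Adamts14, a procollagen N-proteinase like ADAMTS2, which was at 36, 22 and 73 in untreated and at 3, 7 and 36 in treated SFs. The groups met at 36, with amisulpride replicate 3 again the highest treated library. The log2 fold change was -1.91 ± 0.74 (SE), with an unadjusted p of 0.0249 and an adjusted p of 0.357 (limma). Without amisulpride replicate 3 it was -2.81, with an adjusted p of 0.0406 (limma), whereas the gene left the study thresholds without untreated replicate 1 or 3 or amisulpride replicate 1 or 2 (log2 fold changes of -1.96, -1.46, -1.21 and -1.71). Adamts13, the protease of von Willebrand factor, had the highest mean of the 4 and was at 48, 27 and 25 in untreated and 48, 21 and 43 in treated SFs. Of 7 ADAMTS-like genes, which encode related glycoproteins without a protease domain, 5 were tested and none passed the study thresholds. The most abundant, Adamtsl1, was higher without overlap, as were 7.8% of all genes tested, at 166, 193 and 174 in untreated and 339, 230 and 213 in treated SFs, with a log2 fold change of 0.52 ± 0.26 (SE) and an adjusted p of 0.505 (limma).

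Of the genes that inhibit or clear ADAMTS proteases, 6 of 9 were tested. An unadjusted p under 0.05 (limma) was found for 2 of them, against 10.9% of all genes, and both were higher with amisulpride. Reck, a membrane-anchored inhibitor of metalloproteinases, passed the study thresholds, as did 2.69% of all genes in that direction. It was at 37, 78 and 56 in untreated and at 123, 146 and 141 in treated SFs, with a log2 fold change of 1.31 ± 0.31 (SE) and an adjusted p of 0.117 (limma), or 0.0266 with the replicate number as a block. Timp3, the main tissue inhibitor of ADAMTS4 and ADAMTS5, was named after its values were seen. It was at 2464, 3313 and 2047 in untreated and at 5848, 5485 and 4105 in treated SFs. The treated group was higher without overlap, as for 7.8% of all genes tested. The log2 fold change was 0.99 ± 0.28 (SE), with an unadjusted p of 0.00453 and an adjusted p of 0.197 (limma). Timp2 was the most abundant of the list, at 6742, 8873 and 8134 in untreated and 11824, 9945 and 7322 in treated SFs, with a log2 fold change of 0.27 ± 0.29 (SE). The median over the 6 genes was -0.08, so the list did not rise as a whole.

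**Figure D4:**
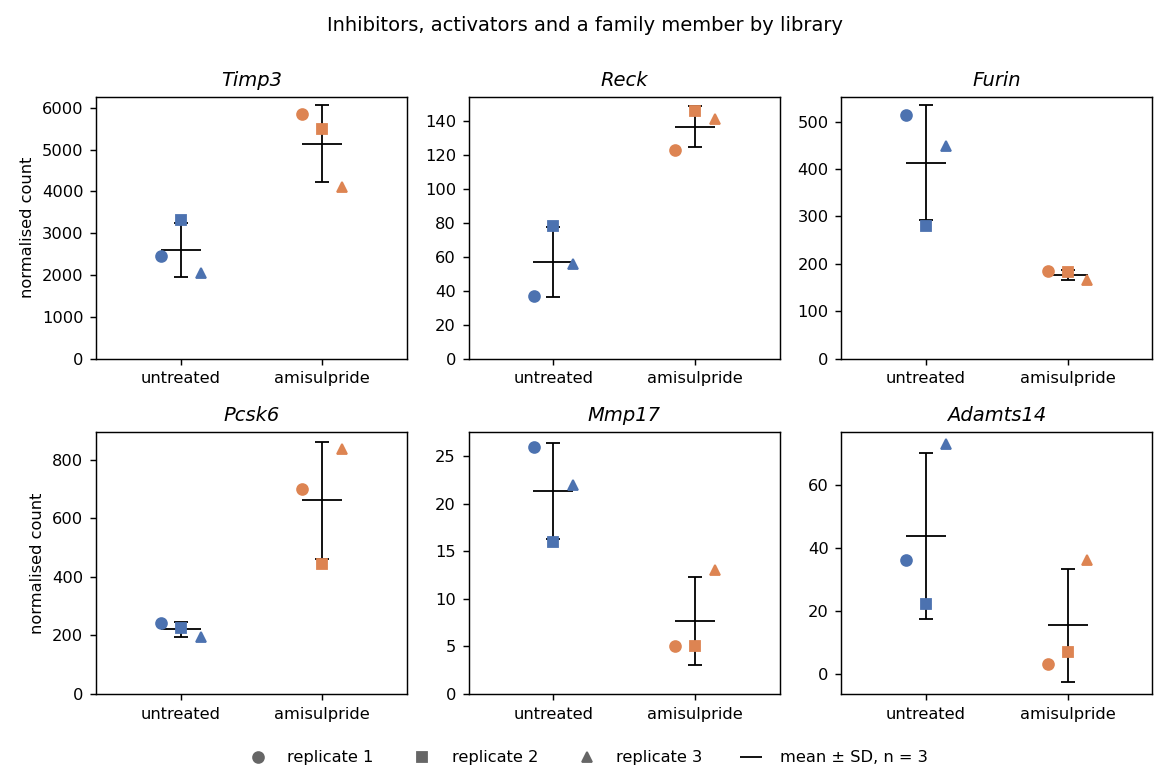
Normalised count (y axis, linear and of different height in each panel) of Timp3, Reck, Furin, Pcsk6, Mmp17 and Adamts14 in untreated and amisulpride-treated libraries (x axis), where points are libraries, shaped by replicate number, and the black bars give mean ± SD. Timp3, Reck and Pcsk6 lie higher and Furin and Mmp17 lower in all 3 treated libraries, while Adamts14 meets between groups at 36.

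Of 10 listed genes that activate, modify or assist the proteases, 8 were matched by name and tested, and 1 was higher and 2 were lower past the study thresholds. Over all genes tested, 2.69% were higher and 3.01% lower past them. Furin and Pcsk6 both encode proprotein convertases, which remove the prodomain of ADAMTS precursors, and they differed in direction. Furin was at 514, 280 and 448 in untreated and at 184, 182 and 165 in treated SFs, with a log2 fold change of -1.18 ± 0.27 (SE) and an adjusted p of 0.109 (limma), or 0.0284 with the replicate number as a block. Pcsk6, which encodes PACE4 and was the most abundant of the list, was at 243, 226 and 194 in untreated and at 702, 444 and 839 in treated SFs. Its log2 fold change was 1.53 ± 0.28 (SE), and its adjusted p was 0.0531 (limma), or 0.00594 with the block and 0.0354 without amisulpride replicate 3. The other convertases, Pcsk5 and Pcsk7, had log2 fold changes of 0.33 and -0.06. Mmp17, a glycosyl-phosphatidylinositol-anchored metalloproteinase known to trim ADAMTS4, was at 26, 16 and 22 in untreated and at 5, 5 and 13 in treated SFs, with a log2 fold change of -1.46 ± 0.53 (SE) and an adjusted p of 0.316 (limma). It left the study thresholds without untreated replicate 1 or 3 or amisulpride replicate 1, at -1.31, -1.43 and -1.26, while Furin fell just short of them without untreated replicate 1, at -0.998. The median over the 8 genes was -0.0008.

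**Figure D5:**
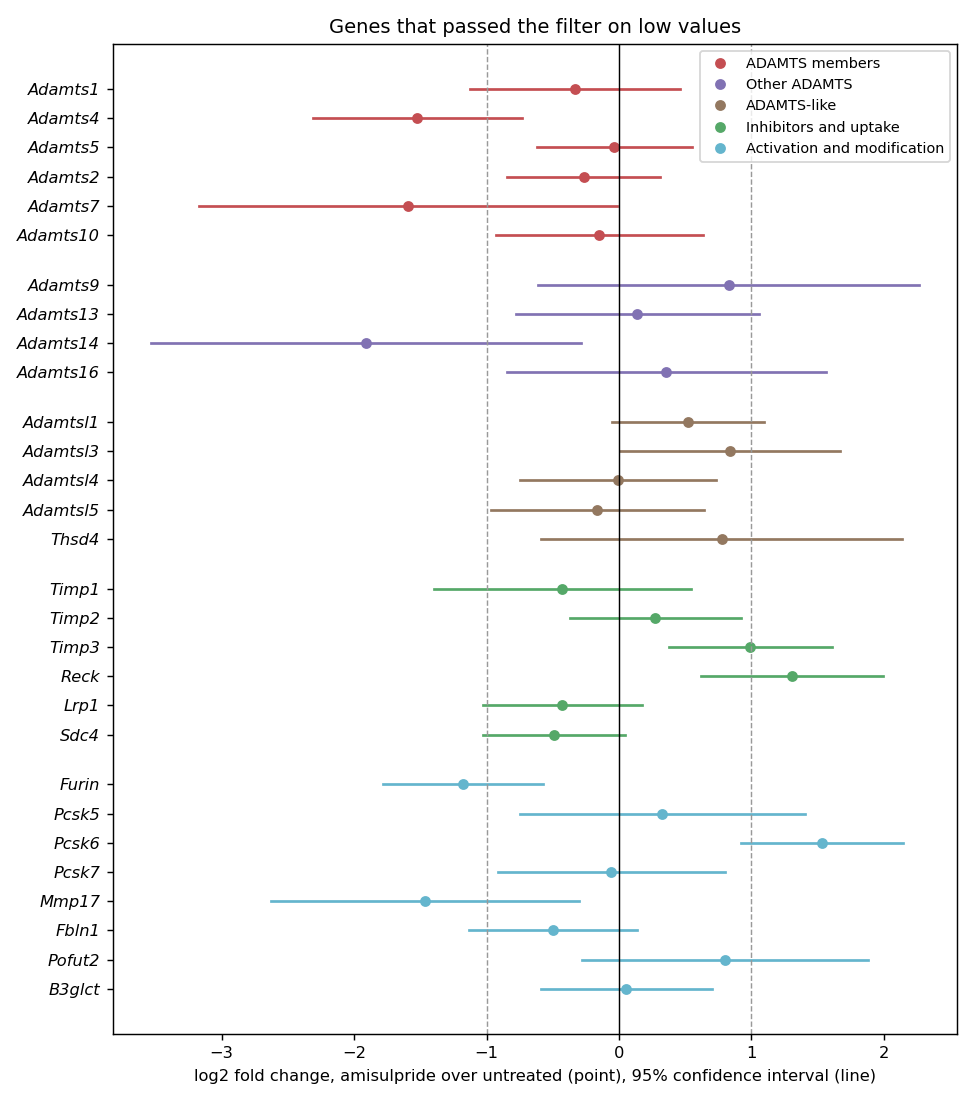
Log2 fold change of amisulpride over untreated (x axis; point) with its 95% confidence interval (line) for the tested genes of the ADAMTS members, the other ADAMTS and ADAMTS-like genes, inhibitors and uptake receptors, and activating or modifying proteins. Dashed lines mark log2 fold changes of -1 and 1. Adamts4 lies at -1.52 with an interval clear of 0, whereas Adamts5 lies at -0.04, and Pcsk6 at 1.53 and Furin at -1.18 lie on opposite sides.

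Among 22 substrate genes, 18 were tested and none passed the study thresholds. Col1a1, encoding a chain of type I collagen whose precursor ADAMTS2 trims, was the most abundant, at 10814, 15684 and 23007 in untreated and 17537, 17397 and 35599 in treated SFs, with a log2 fold change of 0.49 ± 0.40 (SE). Acan, which encodes aggrecan, was at 0 in 5 libraries and at 2 in amisulpride replicate 3, under that library's floor. The substrate genes with an unadjusted p under 0.05 (limma) numbered 3 of the 18 tested, against 10.9% of all genes. All 3 were lower, and they are named here after their values were seen. They were Vcan, encoding versican, with a log2 fold change of -0.89 ± 0.38 (SE), Vegfc, a lymphangiogenic growth factor, at -0.98 ± 0.25, and Prg4, encoding lubricin, at -0.92 ± 0.29. Their adjusted p-values were 0.415, 0.154 and 0.251 (limma). Vcan was at 280, 250 and 540 in untreated and at 144, 135 and 302 in treated SFs, with overlap. Of 7 genes for other steps of procollagen processing, 4 were tested and none passed the thresholds. The most abundant, Bmp1, the procollagen C-proteinase, was at 1663, 1782 and 1589 in untreated and at 1275, 1013 and 956 in treated SFs, with a log2 fold change of -0.64 ± 0.24 (SE), an unadjusted p of 0.0191 and an adjusted p of 0.326 (limma).

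Other metalloproteinases of the matrix were set beside the ADAMTS genes. Of 8 inducible MMPs, 4 were tested, with a median log2 fold change of -1.51 against -0.30 for the 6 ADAMTS genes tested. Against 3.01% of all genes tested, 3 of the 4 were lower past the study thresholds. These were Mmp3 (stromelysin), Mmp9 (a gelatinase) and Mmp13 (the main collagenase of mouse cartilage), with log2 fold changes of -1.79 ± 0.37, -1.70 ± 0.56 and -1.31 ± 0.42 (SE) and adjusted p-values of 0.0764, 0.265 and 0.254 (limma), or 0.0091, 0.00371 and 0.0105 with the replicate number as a block. Mmp9 left the study thresholds without untreated replicate 1 or amisulpride replicate 2, at -1.46 and -1.04, and Mmp13 without untreated replicate 2 or amisulpride replicate 1, at -1.03 and -0.91. The most abundant, Mmp3, was at 4166, 5120 and 2530 in untreated and at 666, 1118 and 1745 in treated SFs. Of 9 constitutive MMPs, 7 were tested, with a median of -0.18. One of them passed the thresholds, Mmp11, at 33, 38 and 54 in untreated and 87, 128 and 109 in treated SFs, with a log2 fold change of 1.37 ± 0.31 (SE) and an adjusted p of 0.0965 (limma), or 0.0257 with the block. Mmp2, a gelatinase and the most abundant of them, had a log2 fold change of 0.15 ± 0.31 (SE). Of 11 ADAM genes, which encode membrane-bound relatives, 10 were tested and none passed the thresholds, and the most abundant, Adam17, the TNF-converting enzyme, had a log2 fold change of -0.33 ± 0.27 (SE). Whether the ADAMTS and MMP lists differ was not tested.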

How the data were processed

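Libraries were prepared with the QuantSeq 3′ kit and sequenced on an Ion Proton instrument. The authors mapped reads to mm10 with TopHat2, mapped the remainder with Bowtie2, counted reads per gene with GenomicRanges, normalised the counts and tested with DESeq, all through metaseqr. Versions and the strand setting are not given in the sources used here. The deposited values used are a score, namely counts scaled by the authors with a single factor for each library and then rounded. The deposited fold changes and p-values of the authors' own comparison were not used, and neither were 12 further columns of values per library. Because rounding follows scaling, whole reads were not recovered and no count test was run. The value of 1 read was estimated from low values of up to 80, and 4 such ranges were tried after the data were seen. It moved by at most 0.001 in 5 libraries and from 0.976 to 0.998 in untreated replicate 1, whose depth and floor are uncertain.

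Log2(normalised count + 1) values were fitted in limma 3.58.1 (R 4.3.3) with a variance trend, two-sided, with Benjamini-Hochberg adjustment over the genes that reached 10 in 3 or more libraries, and the script was tested on simulated data. The pseudocount understates the change of low genes. Single values used exact permutation tests. Libraries with the same replicate number correlated in their deviations from the group means (r = 0.229, 0.24 and 0.201 across genes, against -0.149 to -0.0777 for other pairs). The deviations sum to 0 within each group, so positive values for same-numbered pairs push those of other pairs below 0. The contrast with other pairs is thus partly arithmetic. The pairing comes from the data and not from a labelled batch, so fits with the replicate number as a block are given where they change a call. Alternatives were pseudocounts, filters, scalings, library weights, the block and each library left out.

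The members and gene lists were chosen with earlier results of these data known. Values in every library are given for all members. Of the other lists, apart from cell type markers, genes past the study thresholds and the most abundant gene were named, and exceptions are stated. Zinc-binding sites were found in translated GENCODE vM21 coding sequences, with the pattern widened after a first search missed 3 members. RefSeq promoter entries (GRCm38.p6) matched 3 members, Adamts1, Adamts2 and Adamts12, and are not printed, and Adamts4, Adamts5, Adamts7, Adamts10 and Adamts15 had none.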

Additional observations from a re-analysis of the deposited data

How the results depend on the processing

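Of 153 alternatives computed for the ADAMTS results, 141 were counted as unchanged. For tested genes this meant the same call and sign, and for counts of members the same count. For the ratio and the sum it meant the same sign alone. For untested genes it meant a shift smaller than the spread between replicates, and there the block and the lack of a filter cannot move the value. As no member was called in the fit reported, an unchanged call says little about stability. With array weights or the replicate block, 1 member was called in place of 0, Adamts4, at log2 fold changes of -1.66 (adjusted p = 0.0334) and -1.52 (adjusted p = 0.0196, limma). Over all its alternatives the adjusted p of Adamts4 was 0.0196 to 0.533. The replicate block changed the call of no other member. A filter of at least 20 left 1 member past the study thresholds in place of 2, Adamts4, and with 1 library left out 1 to 2 members passed them and 0 were called. Adamts5 turned to 0.14 without untreated replicate 2 and to 0.0047 without amisulpride replicate 3, for a range of -0.24 to 0.14, and Adamts10 turned to 0.0064 with array weights. The untested Adamts12 turned to 0.29 without untreated replicate 3 (range -0.66 to 0.29) and Adamts15 to 0.32 without amisulpride replicate 3 (range -0.97 to 0.32). Under the block 263 of all 12614 genes had an adjusted p under 0.05, under array weights 195 did, and in the fit reported 36 did. Without amisulpride replicate 3 the number was 120. Without untreated replicates 1, 2 and 3 it was 1, 0 and 0 (962, 1083 and 911 genes at an unadjusted p under 0.05), and without amisulpride replicates 1 and 2 it was 17 and 6. The cause was not tested. Adamts12 and Adamts15 gave no value with a filter of at least 20, quantile normalization or array weights. Low reads limit Adamts4, Adamts7, Adamts10 and Adamts14, and leaving out a library leaves a group of 2.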
